A study of Mus musculus with 23 samples.

Results

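RNA of the mouse embryonic stem (ES) cell line E7 was compared with RNA of the wild-type line AB2.2 across all genes, in 3 E7 and 2 AB2.2 libraries out of 23 in the series. E7 has the genotype Blm-/-;Ago1,2,3,4-/-;CreERT2;hAgo2fl. By that label it lacks the 4 mouse Argonautes and the helicase Blm, and it carries CreERT2, a drug-inducible Cre recombinase, and a human Ago2 transgene. AB2.2 is labelled by its line name alone, with no mutation. Beside them stand 2 libraries of B9 (Blm-/-;Ago1,3,4-/-), which keeps mouse Ago2, and 1 each of the clones C62 and C86 (Blm-/-;Ago1,2,3,4-/-;CreERT2), which have no Argonaute. All were grown on gelatin with serum and LIF, with no treatment. E7 is 1 line, so Argonaute genotype, Blm genotype, CreERT2 and clonal history cannot be told apart between E7 and AB2.2. The promoter of the transgene is not given in the sources used here. The labels do not say that libraries came from separate cultures, and p-values measure only the spread within groups of the 9 libraries fitted together. That spread includes the difference between C62 and C86, which were fitted as 1 group. The tables hold 18412 genes, of which 13200 were tested in exons and 11464 in introns.

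Argonaute proteins bind microRNAs, short RNAs that pair through their seed with sites in the 3′ untranslated region of messenger RNAs and lower their stability and translation. ES cells hold abundant microRNAs of the miR-290 and miR-302 clusters, many of which share a seed, while let-7 microRNAs belong to differentiated cells. ES cells in serum and LIF drift between a naive state, marked by factors such as Nanog, Esrrb and Klf2, and a formative or primed state, marked by Fgf5, Dnmt3b and Pou3f1.

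The sequences below show what an Argonaute of E7 would read: the mature microRNAs (RefSeq, GRCm38.p6), with their seed, bases 2 to 8, in capitals. miR-294-3p lies at chr7:3220691-3220712 (+), miR-302b-3p at chr3:127545275-127545297 (+) and let-7g-5p at chr9:106178846-106178867 (+).
miR-294-3p: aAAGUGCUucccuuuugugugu
miR-302b-3p: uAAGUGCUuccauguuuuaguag
let-7g-5p: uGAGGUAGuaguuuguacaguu
The first pair share the seed AAGUGCU, which 5 mature mouse microRNAs of the RefSeq table carry, and let-7g-5p is 1 of 11 with GAGGUAG. The next lines show sites in 3′ untranslated regions of genes described further on (GENCODE M21, GRCm38, read in the sense of the transcript), with the match to the seed in capitals. Ei24 (chr9:36779880-36779904, −), Dazap2 (chr15:100619533-100619557, +) and Lefty2 (chr1:180897908-180897932, +) hold 1 match to AAGUGCU each. Lin28b (chr10:45381014-45381038, −, the first of 4) and Igf2bp2 (chr16:22059465-22059489, −, its only one) match GAGGUAG.
Ei24: tgtttttttAGCACTTgccagctcc
Dazap2: cataccttcAGCACTTctcacaatg
Lefty2: cccagtttaAGCACTTacatgggta
Lin28b: gcgggaagtCTACCTCatgcaagca
Igf2bp2: aaataaaagCTACCTCaggtgtttt
A match is a description of these letters only, and binding was not measured.

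Levels are normalised reads, the authors' read numbers per gene divided by a size factor for each library. The deposited values were group means, from which the read number of each library was worked out. Libraries of a group are numbered by depth, since the columns carry no replicate number, and intron libraries have their own numbers. E7 libraries held 23.8, 20.5 and 17.6 M exon reads and 3.27, 2.75 and 2.40 M intron reads. AB2.2 libraries held 46.5 and 13.5 M exon reads and 4.60 and 1.90 M intron reads. For 43 abundant genes the E7 exon libraries could not be worked out, Pou5f1 and Dppa5a among them, and these were not tested. They held 11.2% of the summed E7 exon means. The E7 exon totals above leave them out and are too low, while those of AB2.2 hold all genes. A log2 change is given ± its standard error with the Benjamini-Hochberg adjusted p of limma, and a gene is called at an adjusted p below 0.05. Simulated data for this comparison gave calls for 10% of genes changed 2-fold, 48% of 4-fold and 76% of 8-fold, so a missing call says little about small changes. The ES cell markers were present: Sox2 had 31507, 32661 and 37040 in E7 libraries, against 23038 and 20477 in AB2.2 libraries, and Zfp42 33301, 24086 and 20166 in E7 libraries, against 25853 and 19969 in AB2.2 libraries. Pou5f1 had a deposited mean of 40873 in E7 and 36227 in AB2.2. Of the 5 defining feeder fibroblast markers, Col1a2, Col3a1 and Dcn were at 0 in all 3 E7 libraries. Col1a2 had 43.6 and 25.9 in AB2.2, where Col3a1 had 6.70 and 0 and Dcn had 8.94 and 0. The other two, Col1a1 and Thy1, are given with the matrix genes. In bulk RNA, fewer cells of a kind and less RNA per cell cannot be told apart.

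Ago1 (chr4:126435012-126468583) had 0, 0 and 0 in E7 libraries, against 3514 and 4693 in AB2.2 libraries, at least 1070.5-fold lower counting 3 reads as the most that a library at 0 could have missed (log2 change −11.99 ± 0.89, adjusted p = 0.000416). That bound takes reads as independent, but most low read numbers were even, as given with the processing, so it could be too high. Ago1 was also at 0 in B9 and in the clones. Ago2 (chr15:73095844-73184935), the member that cuts its target, had 3578, 5250.1 and 6799 in E7 libraries, against 5199.7 and 7254 in AB2.2 libraries, and the groups overlapped (log2 change −0.29 ± 0.29, adjusted p = 0.653). Its level was 5199 and 6439 in the clones, which have no Ago2 by their labels, so exon reads at Ago2 do not check that label. How the allele was disrupted is not given in the sources used here, and reads of a disrupted mouse gene and of a human transgene cannot be told apart in these values.

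Introns of Ago2 showed another pattern: 1230.5, 1336 and 1151 in E7 libraries, against 117 and 296 in AB2.2 libraries (log2 change 2.73 ± 0.41, adjusted p = 0.0118). Every E7 library was above both AB2.2 libraries there, while exons were not. Exon minus intron change for Ago2 was −3.05 ± 0.37 (adjusted p = 0.110). Ago3 (chr4:126331704-126429556) had 1378, 1963 and 1227 in E7 libraries, against 366 and 607 in AB2.2 libraries, higher in every E7 library but not called (log2 change 1.66 ± 0.47, adjusted p = 0.0695). Ago4 (chr4:126489541-126533472) was near the floor, with 8.09, 18.4 and 6.39 in E7 libraries, against 7.82 and 48.1 in AB2.2 libraries, and overlapped. Blm (chr7:80454733-80535119), the helicase of Bloom syndrome, had 2383, 3058 and 2644 in E7 libraries, against 4132 and 5483 in AB2.2 libraries, lower in every E7 library but not called (log2 change −0.83 ± 0.28, adjusted p = 0.123). The introns of Blm overlapped, with 1629, 1294 and 1223 in E7 libraries, against 1235 and 1648 in AB2.2 libraries. Among the 5 targeted genes, exon reads were thus lost from Ago1 and not from the other four.

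Exon levels of 603 genes differed between E7 and AB2.2 (4.57% of those tested), 410 higher (3.11%) and 193 lower (1.46%). Of these, 552 differed at least 2-fold. At an unadjusted p below 0.05 there were 2582, and the median log2 change of all genes was −0.02. The count depended on single libraries: it was 410, 164 and 254 without E7 library 1, 2 and 3, and 131 and 44 without AB2.2 library 1 and 2. Of the 99 called genes followed through the leave-one-out fits, 17 kept their call whichever of the 5 libraries was left out, and 18 lost it whichever was left out. The 17 were 2300002M23Rik, Ago1, Aldh3a1, C1qtnf9, Cfp, Crebl2, Crtac1, Ehf, Esr1, Hhip, Il6ra, Mmrn2, Phlda2, Plagl1, Saa3, Smyd1 and Tagln. The 18 were Abca1, Cd4, Cubn, Dmrt1, Ebp, Esrrb, Gata6, Gdf3, Igf2bp2, Kcna5, Lamc1, Lin28b, Nanog, Smad6, Sox11, Suv39h1, Tfcp2l1 and Tnrc6a. Of the 99, 29 remained called without AB2.2 library 1 and 21 without AB2.2 library 2, and the sign of the change was the same for all 99 in each of these fits.

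**Figure D1:**
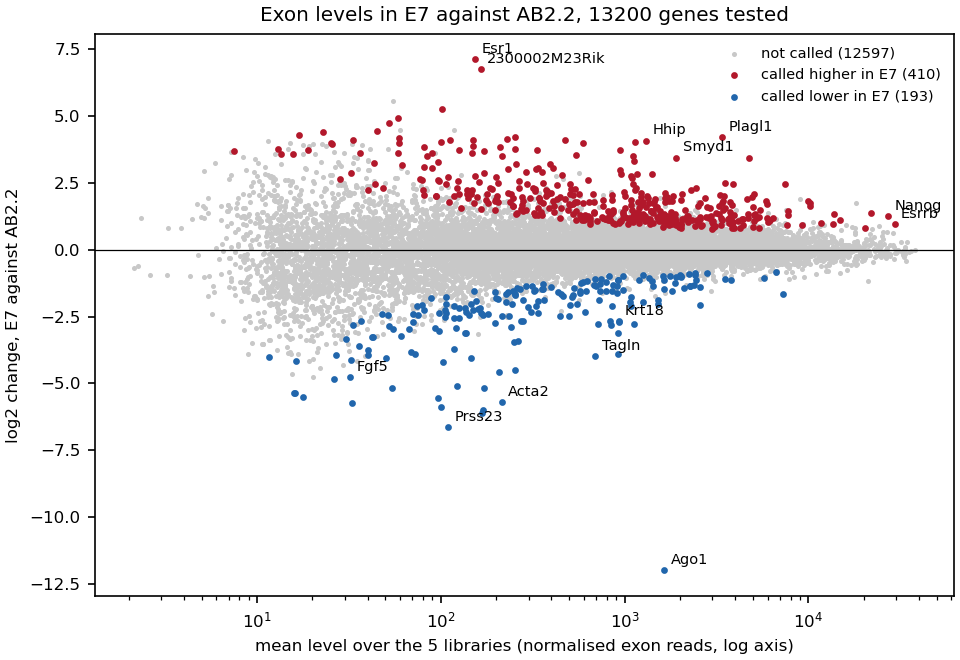
Log2 change of each tested gene in exons (E7 against AB2.2, vertical) by its mean normalised reads over the 5 libraries (horizontal, log axis). Red points are the 410 genes called higher in E7, blue points the 193 called lower and grey points those not called. Ago1 lies lowest and Esr1 highest among the called genes.

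Esr1, the estrogen receptor, rose most (chr10:4611593-5005614): 314, 269 and 181 in E7 libraries, against 2.23 and 0 in AB2.2 libraries, a log2 change of 7.12 ± 0.68 (adjusted p = 0.000736). It was 305 and 551 in the clones and 0 in both B9 libraries, so it was high in the genotypes labelled with CreERT2 and low in those without. CreERT2 holds the ligand-binding domain of an estrogen receptor. The source of the Esr1 reads was not tested. Plagl1 (chr10:13060504-13131694), an imprinted zinc-finger factor, had 4889, 5121 and 6407 in E7 libraries, against 327 and 263 in AB2.2 libraries, a mean 18.6-fold higher (log2 change 4.21 ± 0.40, adjusted p = 0.000736). No E7 library of Plagl1 was near the AB2.2 level, and its introns moved alike, with 743, 715 and 561 in E7 libraries, against 49.9 and 20.9 in AB2.2 libraries (log2 change 4.32 ± 0.45, adjusted p = 0.000995).

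The other large rises were of genes almost silent in AB2.2. 2300002M23Rik had 106, 259 and 456 in E7 libraries, against 0 and 3.70 in AB2.2 libraries (log2 change 6.75 ± 0.79, adjusted p = 0.00216). Apom, an apolipoprotein, had 204, 123 and 165 in E7 libraries, against 17.3 and 0 in AB2.2 libraries (log2 change 5.24 ± 0.94, adjusted p = 0.0136). Aldh3a1, an aldehyde dehydrogenase, had 395, 184 and 656 in E7 libraries, against 24.0 and 14.8 in AB2.2 libraries (log2 change 4.19 ± 0.50, adjusted p = 0.00253). For these 3 genes the E7 libraries spread widely but lay above both AB2.2 libraries. C1qtnf9, a secreted protein of the C1q family, was tighter, with 910.2, 568 and 802 in E7 libraries, against 34.1 and 51.8 in AB2.2 libraries (log2 change 4.12 ± 0.40, adjusted p = 0.000736). Crtac1, a matrix protein, had 229.6, 351 and 533 in E7 libraries, against 24.6 and 14.8 in AB2.2 libraries (log2 change 4.13 ± 0.45, adjusted p = 0.00148). Il6ra, a receptor chain for interleukin-6, had 156, 209 and 174 in E7 libraries, against 21.8 and 3.70 in AB2.2 libraries (log2 change 4.11 ± 0.60, adjusted p = 0.00569). In each of them the lowest E7 library was several times the highest AB2.2 library. No overlap of the groups was a condition for naming these rises and the falls below. Of all tested genes 21% had every E7 library above every AB2.2 library, and 20.2% had every one below. Ehf, Alox12e, Igll1 and Cd300e completed the 12 largest rises, with log2 changes of 4.19, 4.91, 4.45 and 4.73.

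Prss23 (chr7:89507783-89527187), a serine protease, fell most after Ago1: 2.02, 0 and 5.11 in E7 libraries, against 333 and 207 in AB2.2 libraries (log2 change −6.64 ± 1.0, adjusted p = 0.00634). Csf1, the macrophage growth factor, had 14.2, 6.90 and 0 in E7 libraries, against 212 and 248 in AB2.2 libraries (log2 change −5.54 ± 1.03, adjusted p = 0.0162). Cysltr1, a leukotriene receptor, had 2.02, 0 and 0 in E7 libraries, against 50.8 and 111 in AB2.2 libraries (log2 change −5.72 ± 1.28, adjusted p = 0.0302). Each of the 3 was at 0 in at least 1 E7 library and clear in both AB2.2 libraries. Gbp2 and Gbp2b, interferon-inducible GTPases that neighbour each other on chromosome 3 and are close paralogs, so that reads could be split between them, both fell. Gbp2b had 2.02, 4.60 and 12.8 in E7 libraries, against 293 and 533 in AB2.2 libraries (log2 change −6.01 ± 0.90, adjusted p = 0.00603), and Gbp2 had 2.02, 13.8 and 28.1 in E7 libraries, against 314 and 496 in AB2.2 libraries (log2 change −5.18 ± 0.89, adjusted p = 0.0111). Zfp677, Hs6st2 and Nlrp4c fell as well, with log2 changes of −5.17, −5.11 and −4.83. With so few E7 reads these fitted changes depend on the pseudocount of 1 and are no bounds.

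Of 23 tested naive pluripotency genes 7 were called higher and 0 lower, with a median log2 change of 0.32. Of all tested genes 3.11% were called higher and 1.46% lower, and these shares stand beside each list count below. Nanog (chr6:122707489-122714633) had 32375, 30826 and 42946 in E7 libraries, against 13666 and 16054 in AB2.2 libraries (log2 change 1.24 ± 0.30, adjusted p = 0.0420). Esrrb (chr12:86361117-86521628), an orphan nuclear receptor of the naive network, had 37714, 40709 and 31446 in E7 libraries, against 16916 and 20518 in AB2.2 libraries (log2 change 0.97 ± 0.22, adjusted p = 0.0301). Tfcp2l1, a further factor of the network, had 23397, 31721 and 32244 in E7 libraries, against 10322 and 11906 in AB2.2 libraries (log2 change 1.38 ± 0.34, adjusted p = 0.0416). The groups did not overlap in any of these 3. Klf2, a Krüppel-like factor, had 21882, 14218 and 18599 in E7 libraries, against 8769 and 5704 in AB2.2 libraries (log2 change 1.34 ± 0.27, adjusted p = 0.0233). Tbx3, a T-box factor, had 8102, 8965 and 7604 in E7 libraries, against 2449 and 2608 in AB2.2 libraries (log2 change 1.70 ± 0.27, adjusted p = 0.00816). For Klf2 and Tbx3, too, every E7 library was above both AB2.2 libraries. Prdm14, a repressor of primed genes, and Tcl1, a co-activator of Akt, rose, with log2 changes of 1.48 and 1.15. Sox2, not called, was above both AB2.2 libraries in every E7 library, and Zfp42 overlapped. Summed over the 23 genes, levels were 268346 to 291201 in E7 and 174874 to 196771 in AB2.2. B9 lay near E7, with 264357 and 259756. Of the 7 calls, 3, 2 and 2 remained without E7 library 1, 2 and 3, and 0 without either AB2.2 library. Nanog lies in a segment of chromosome 6 that was higher as a whole, described further on, and Tcl1 in one of chromosome 12 that was lower.

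Of 12 tested formative and primed genes 0 were called higher and 4 lower, with a median of −0.60. Fgf5, a growth factor of the epiblast, had 2.02, 0 and 5.11 in E7 libraries, against 106 and 48.1 in AB2.2 libraries (log2 change −4.77 ± 1.06, adjusted p = 0.0301). Pou3f1, a POU factor of early epiblast, had 251, 409 and 222 in E7 libraries, against 2395 and 1388 in AB2.2 libraries (log2 change −2.68 ± 0.41, adjusted p = 0.00640). Pim2, a kinase, had 625, 719 and 700.2 in E7 libraries, against 2965 and 2627 in AB2.2 libraries (log2 change −2.04 ± 0.27, adjusted p = 0.00410). In all 3 the highest E7 library lay far below the lower AB2.2 library. Dnmt3b, a DNA methyltransferase, had 5422, 4603 and 2129 in E7 libraries, against 13968 and 10267 in AB2.2 libraries, with its adjusted p just inside the threshold (log2 change −1.67 ± 0.42, adjusted p = 0.05). Otx2 overlapped (log2 change −0.00 ± 0.31, adjusted p = 0.996), and Dnmt3a was lower in every E7 library but not called (log2 change −0.78 ± 0.27, adjusted p = 0.129). The summed level of the 12 was 18586 to 26257 in E7 and 34232 to 44083 in AB2.2. Of the 4 calls, 3, 2 and 3 remained without E7 library 1, 2 and 3, and 1 without either AB2.2 library (Pim2 without library 1, Pou3f1 without library 2).

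**Figure D2:**
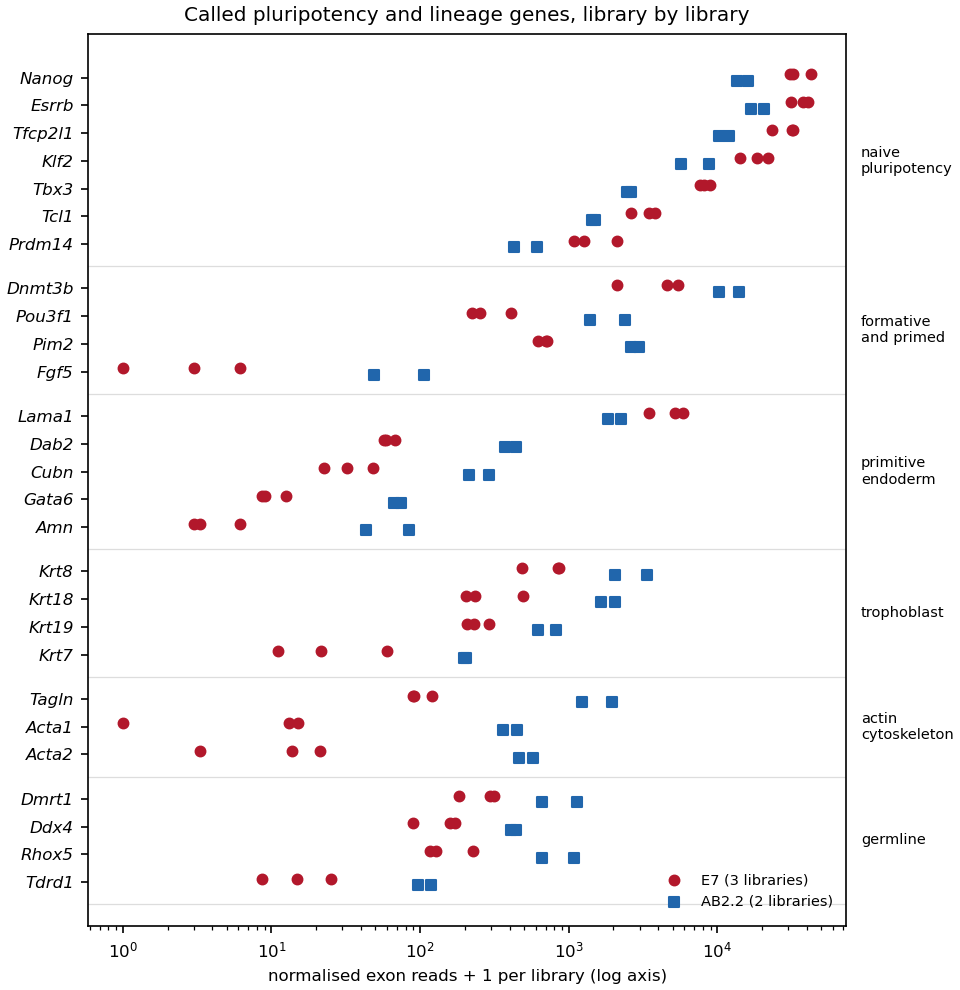
Normalised exon reads + 1 of called naive, primed, endoderm, trophoblast, actin and germline genes in each library (horizontal, log axis). Red circles are the 3 E7 libraries and blue squares the 2 AB2.2 libraries. The groups do not overlap for any gene shown, and naive genes and Lama1 are higher in E7 while the others are lower.

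Of 15 primitive endoderm genes 1 was called higher and 4 lower, with a median of −1.0. Dab2, an endocytic adaptor, had 57.6, 66.7 and 56.2 in E7 libraries, against 441 and 370.0 in AB2.2 libraries (log2 change −2.73 ± 0.40, adjusted p = 0.00580). Gata6, the factor that sets endoderm identity, had 8.09, 11.5 and 7.67 in E7 libraries, against 65.9 and 74.0 in AB2.2 libraries (log2 change −2.83 ± 0.64, adjusted p = 0.0331). In both the E7 libraries lay close together and below AB2.2. Cubn and Amn, partners in one uptake receptor, fell, with log2 changes of −2.92 and −3.94, and Amn lies in the lower segment of chromosome 12. Lama1, a laminin chain that ES cells also make, rose, with 5885, 5228 and 3458 in E7 libraries, against 2244 and 1829.6 in AB2.2 libraries (log2 change 1.23 ± 0.25, adjusted p = 0.0227). Of these 5 calls, 1, 1 and 3 remained without E7 library 1, 2 and 3, and 0 without either AB2.2 library. Summed over the 17 listed genes, levels were 20041 to 21984 in E7 and 13829 to 15921 in AB2.2, so the sum, which Sparc, Lamb1 and Lama1 lead, ran against the median.

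Of 10 trophoblast genes 0 were called higher and 4 lower, all keratins of simple epithelia (median of the list −0.77). Krt18 had 234, 202 and 488 in E7 libraries, against 2048 and 1659 in AB2.2 libraries (log2 change −2.69 ± 0.38, adjusted p = 0.00523), and its partner Krt8 had 845, 488 and 865 in E7 libraries, against 3362 and 2042 in AB2.2 libraries (log2 change −1.88 ± 0.31, adjusted p = 0.00901). Krt19 and Krt7 fell, with log2 changes of −1.56 and −3.04. The trophoblast factors Gata2 and Tfap2c overlapped, with log2 changes of −0.10 and 0.38. Without AB2.2 library 1 or 2, 0 and 1 of the keratin calls remained. Summed over 14 listed trophoblast genes, levels were 3605 to 5098 in E7 and 6488 to 8990 in AB2.2. B9 was as low as E7, with 3661 and 3666. Of 17 germline genes 0 were called higher and 4 lower, with a median of −1.17. Dmrt1, a factor of germ cells, had 182, 293 and 314 in E7 libraries, against 663 and 1141 in AB2.2 libraries (log2 change −1.76 ± 0.42, adjusted p = 0.0386). Rhox5, an X-linked homeobox gene, had 228, 128 and 115 in E7 libraries, against 1083 and 660.4 in AB2.2 libraries (log2 change −2.49 ± 0.45, adjusted p = 0.0141). Ddx4 and Tdrd1, both of the piRNA pathway, fell, with −1.66 and −2.86. Dazl overlapped, with 164, 406 and 345 in E7 libraries, against 204 and 469.9 in AB2.2 libraries. Of the 4 germline calls, 3, 0 and 2 remained without E7 library 1, 2 and 3, and 0 without either AB2.2 library. In the mesoderm list 0 of 10 genes were called (median −0.01). Of 11 neuroectoderm genes Ncam1 rose (log2 change 1.97) and Sox11 fell (log2 change −1.77), with a median of 0.07.

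Matrix and cytoskeleton genes held 6 falls and 1 rise among 29 tested (median −0.41). Acta2 (chr19:34241090-34255590), smooth muscle actin, had 20.2, 2.30 and 12.8 in E7 libraries, against 575 and 461 in AB2.2 libraries (log2 change −5.71 ± 0.82, adjusted p = 0.00569). Tagln, an actin-binding protein of smooth muscle, had 88.0, 118 and 89.4 in E7 libraries, against 1957 and 1219 in AB2.2 libraries (log2 change −3.97 ± 0.36, adjusted p = 0.000736). Acta1, skeletal muscle actin, had 12.1, 0 and 14.1 in E7 libraries, against 362 and 451 in AB2.2 libraries (log2 change −6.12 ± 1.12, adjusted p = 0.0155). In all 3 every E7 library lay far below both AB2.2 libraries. Thbs1, thrombospondin, had 174, 239 and 229 in E7 libraries, against 1696 and 1251 in AB2.2 libraries (log2 change −2.77 ± 0.49, adjusted p = 0.0124). Cyr61, a matricellular protein, and Anxa3, an annexin, fell, with −1.37 and −3.11. Lamc1, the laminin gamma chain, rose, with 26102, 23466 and 24355 in E7 libraries, against 14981 and 13314 in AB2.2 libraries (log2 change 0.80 ± 0.19, adjusted p = 0.0410). The abundant Flna, Itgb1 and Fn1 were not called, with log2 changes of −0.09, −0.07 and 0.68. Of the 7 calls in this list, 6, 5 and 5 remained without E7 library 1, 2 and 3, and 1, Tagln, without either AB2.2 library. Of the 12 feeder fibroblast genes 6 were tested, 0 were called higher and 1 lower: Col1a1, with 38.4, 46.0 and 60.1 in E7 libraries, against 383 and 181 in AB2.2 libraries (log2 change −2.45 ± 0.52, adjusted p = 0.0268). Thy1 had 54.6, 50.6 and 39.6 in E7 libraries, against 154 and 122 in AB2.2 libraries, lower in every E7 library but not called (log2 change −1.50 ± 0.39, adjusted p = 0.0555). The list summed to 4972 to 12134 in E7 and 3707 to 5302 in AB2.2, most of it Vim, which ES cells also make, and 5 genes were at 0 in every E7 library. The part of these markers in the falls was not tested.

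Imprinted genes changed both ways: 2 of 19 tested were called higher and 3 lower (median −0.51). Beside Plagl1, Peg3 rose, with 4286, 6447 and 6059 in E7 libraries, against 2473 and 2468 in AB2.2 libraries (log2 change 1.16 ± 0.25, adjusted p = 0.0288). Phlda2 (chr7:143501545-143503150) had 268, 122 and 79.2 in E7 libraries, against 2246 and 1898 in AB2.2 libraries (log2 change −3.90 ± 0.49, adjusted p = 0.00337), and its neighbour Cdkn1c (chr7:143458339-143461050), an inhibitor of cyclin-dependent kinases, had 229, 316 and 151 in E7 libraries, against 2287 and 1646 in AB2.2 libraries (log2 change −3.12 ± 0.46, adjusted p = 0.00580). Grb10, an adaptor of growth factor receptors, had 1077, 972 and 1219 in E7 libraries, against 3378 and 6149 in AB2.2 libraries (log2 change −2.07 ± 0.34, adjusted p = 0.00901). No E7 library of the 3 overlapped AB2.2. B9 was also below AB2.2, with 247 and 154 for Phlda2, 281 and 107 for Cdkn1c and 656 and 691 for Grb10. Without AB2.2 library 1 and 2, 3 and 2 of the 5 calls remained.

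In the Tgf-β and BMP pathway 3 of 32 genes were called higher and 1 lower (median 0.10). Gdf3, a ligand of the family, had 8368, 7041 and 7569.7 in E7 libraries, against 4028 and 2866 in AB2.2 libraries (log2 change 1.17 ± 0.26, adjusted p = 0.0301). Id4, an inhibitor of basic helix-loop-helix factors, had 521, 652 and 714 in E7 libraries, against 76.5 and 178 in AB2.2 libraries (log2 change 2.41 ± 0.45, adjusted p = 0.0169), whereas its relative Id1 had 808, 351 and 359 in E7 libraries, against 2490.1 and 1341 in AB2.2 libraries (log2 change −1.97 ± 0.41, adjusted p = 0.0254). The 2 Id genes thus changed in opposite directions. Smad6, an inhibitory Smad, rose (log2 change 1.11). Among 22 Smad2/3 target genes Lefty2, a secreted Nodal inhibitor, rose, with 5545, 12440 and 13518 in E7 libraries, against 3121 and 4059 in AB2.2 libraries (log2 change 1.46 ± 0.36, adjusted p = 0.0442), and Id1 fell. The E7 libraries of Lefty2 spread widely, and library 1 was close to AB2.2. Its neighbour and close paralog Lefty1 was not called (log2 change 0.99 ± 0.45, adjusted p = 0.249), and reads could be split between them. Skil was lower in every E7 library but not called (log2 change −1.09 ± 0.32, adjusted p = 0.0839). The median of the Smad2/3 list was 0.05. Without either AB2.2 library no call in these lists remained.

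Of 16 tested interferon-stimulated genes 2 were called higher and 1 lower (median 0.66). Oas1a, an oligoadenylate synthetase, had 567, 429 and 653 in E7 libraries, against 173 and 79.5 in AB2.2 libraries (log2 change 2.2 ± 0.37, adjusted p = 0.00914), and Oas2 had 257, 331 and 464 in E7 libraries, against 94.9 and 83.2 in AB2.2 libraries (log2 change 1.93 ± 0.37, adjusted p = 0.0177). Gbp2 fell, as given above, so the called members did not move one way. Without AB2.2 library 1 and 2, 1 and 0 of these 3 calls remained. Of 22 G1/S regulators 0 were called higher and 1 lower, Cdkn1c, and of 24 cholesterol genes Ebp, a sterol isomerase, rose (log2 change 0.99). Of 19 p53 targets Ei24 rose, and of 17 chromatin genes Dnmt3b fell. These are single calls, where 3.11% of all genes were called higher and 1.46% lower, and say nothing of the lists. No gene was called by limma in 8 further lists: Blm complex (17 tested), Atf4 and serine genes (22), glycolysis (20), 2-cell-like state (10), immediate early genes (14), metallothioneins and stress (12), Y-linked genes (6) and Dlk1-Dio3 transcripts (1). Their medians lay between −1.54, for Dlk1 alone, and 0.44. Together with the mesoderm list, these 9 lists held 21 of 112 tested genes at an unadjusted p below 0.05, where 2582 of all 13200 passed.

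In the Argonaute and microRNA pathway 1 of 23 genes was called higher and 2 lower (median −0.22). Tnrc6a, the partner through which Argonaute recruits deadenylases, had 6094, 6611 and 6714 in E7 libraries, against 3613 and 3781 in AB2.2 libraries (log2 change 0.81 ± 0.19, adjusted p = 0.0357). Lin28b, which blocks let-7 maturation and is itself a let-7 target, had 1170.1, 1167 and 1173 in E7 libraries, against 2109 and 2488 in AB2.2 libraries (log2 change −0.97 ± 0.22, adjusted p = 0.0343). The 3 E7 libraries of Lin28b were almost equal and below both AB2.2 libraries. Lin28a was lower in every E7 library but not called (log2 change −0.76 ± 0.32, adjusted p = 0.218). The 3′ untranslated region of Lin28b held 4 matches to the let-7 seed, the first of which is printed above, and Igf2bp2, with 1 match, changed the other way, with 5542, 5212 and 5449.9 in E7 libraries, against 2721 and 3021 in AB2.2 libraries (log2 change 0.91 ± 0.21, adjusted p = 0.0343). No other of 21 let-7 targets was called, and their median was −0.12. Tnrc6a, Lin28b and Igf2bp2 lost their call whichever of the 5 libraries was left out.

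Of 25 targets of ES cell microRNAs 2 were called higher and 1 lower, with a median of 0.32 in exons and −0.00 in introns. Ei24, an endoplasmic reticulum protein, had 6905, 6616 and 7389.6 in E7 libraries, against 3274 and 2679 in AB2.2 libraries (log2 change 1.23 ± 0.24, adjusted p = 0.0205). Dazap2, an adaptor protein, had 3743, 4627 and 6270.2 in E7 libraries, against 2140 and 2137 in AB2.2 libraries (log2 change 1.16 ± 0.24, adjusted p = 0.0237). Both hold the 1 AGCACTT match printed above, and in both every E7 library was at least 1.5 times the AB2.2 libraries. Their introns were not called, with log2 changes of 0.82 and 0.89. Suv39h1, a histone methyltransferase with 0 matches, fell (log2 change −1.3). Cdkn1a, an inhibitor of cyclin-dependent kinases with 2 matches, overlapped (log2 change 0.55 ± 0.40, adjusted p = 0.507). Of the 3 calls, 2 remained without E7 library 1 and 0 without any other of the 5 libraries.

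Over all genes the AGCACTT match went with a small shift. Of 13200 tested genes 13096 had a 3′ untranslated region in GENCODE M21, and 2236 held at least 1 match. Their median log2 change was 0.08, against −0.04 for the 10860 with none, and 0.11 for the 421 with at least 2. Of the 2236 genes 112 were called higher (5.01%) and 25 lower (1.12%), against 2.72% and 1.53% of the 10860 without a match. Introns of genes with and without a match had medians of −0.05 and −0.02. The shift was not steady between libraries. Taken for each E7 and AB2.2 library in turn, the difference between genes with and without a match ran from 0.02 to 0.22, while E7 libraries 1 and 3 differed by −0.14 among themselves. The other differences between libraries of 1 line were −0.13 and −0.02 in E7 and −0.05 in AB2.2. In 3 of 6 pairs of an E7 and an AB2.2 library the difference was larger than any within a line, and in the other three it was not. Genes with a match also had longer 3′ untranslated regions, a median of 2498 bases against 954. Between 1000 and 2000 bases the medians were 0.04 with a match and −0.05 without, and between 2000 and 4000 bases 0.10 and −0.03. For the let-7 match CTACCTC the medians were −0.01 with and −0.02 without. Between 1000 and 2000 bases they were −0.01 and −0.04, and between 2000 and 4000 bases −0.10 and 0.02. With that match 4.31% of genes were called higher and 1.87% lower, against 2.96% and 1.41% without. For GCGGCAC of miR-293 the medians were 0.05 with and −0.02 without. Between 2000 and 4000 bases they were 0.24 for 96 genes with a match and −0.00 for 2713 without. The sign was the other way between 1000 and 2000 bases, with −0.09 for 55 genes with a match and −0.04 for 3283 without. All 3 searches, with GCGGCAC of miR-293, used the transcript strand alone, and AGCACTT was found in 2236, CTACCTC in 1391 and GCGGCAC in 224 genes.

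Intron reads, which come mainly from unspliced RNA, gave 64 calls (0.558% of 11464 tested), 58 higher (0.506%) and 6 lower (0.0523%), and 1261 genes at an unadjusted p below 0.05. The intron count was 8, 20 and 24 without E7 intron library 1, 2 and 3, and 72 and 18 without AB2.2 library 1 and 2. Egfl6 (chrX:166523007-166585720), a secreted protein with EGF repeats, had intron levels of 339.9, 297 and 603 in E7 libraries, against 29.3 and 2.99 in AB2.2 libraries (log2 change 5.16 ± 0.75, adjusted p = 0.00982). Hhip, a hedgehog-binding membrane protein, had intron levels of 73.3, 104 and 149 in E7 libraries, against 11.9 and 0 in AB2.2 libraries (log2 change 4.88 ± 0.83, adjusted p = 0.0273). Tmem229b, Pla1a, Saa3 and Dmgdh completed the 6 largest intron rises, with 4.62, 4.96, 4.59 and 4.57. Exons of all but Dmgdh were called higher too. Nanog introns were also called, with 1012, 1394 and 1012 in E7 libraries, against 314 and 372 in AB2.2 libraries (log2 change 1.72 ± 0.28, adjusted p = 0.0191). Car4 (chr11:84957786-84966044), a carbonic anhydrase, had intron levels of 11, 8.44 and 10.01 in E7 libraries, against 193 and 206 in AB2.2 libraries (log2 change −4.22 ± 0.67, adjusted p = 0.0172). Gtpbp10, Phldb2, Pon2 and Eif4g3 were the other intron falls beside Ago1, with −2.18, −2.90, −2.53 and −1.98, and only Pon2 of these was not called in exons (adjusted p = 0.0852).

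Most genes called in exons had an intron change of the same sign. Of the 410 called higher, 377 had introns tested, 368 of those were also higher in introns and 48 were called. Every E7 intron library was above every AB2.2 intron library for 286 of them, while 14.8% of all intron-tested genes did so. Of the 193 called lower, 130 had introns tested, 129 were lower there and 5 were called, and 109 stood below without overlap, against 14% of all. Median changes were 1.56 in exons and 1.15 in introns for the rises, and −1.65 and −1.39 for the falls. Exons and introns come from the same libraries, so they share what sets a library apart. In the test of exon minus intron changes limma called Ago1 alone, lower (0.00897% of 11153), with −4.61 ± 0.27 (adjusted p = 0.000537), and 0 genes were called higher (0%). At an unadjusted p below 0.05 there were 568. Without AB2.2 library 1, 49 were called, and 0 were called when libraries were not matched between the tables.

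**Figure D3:**
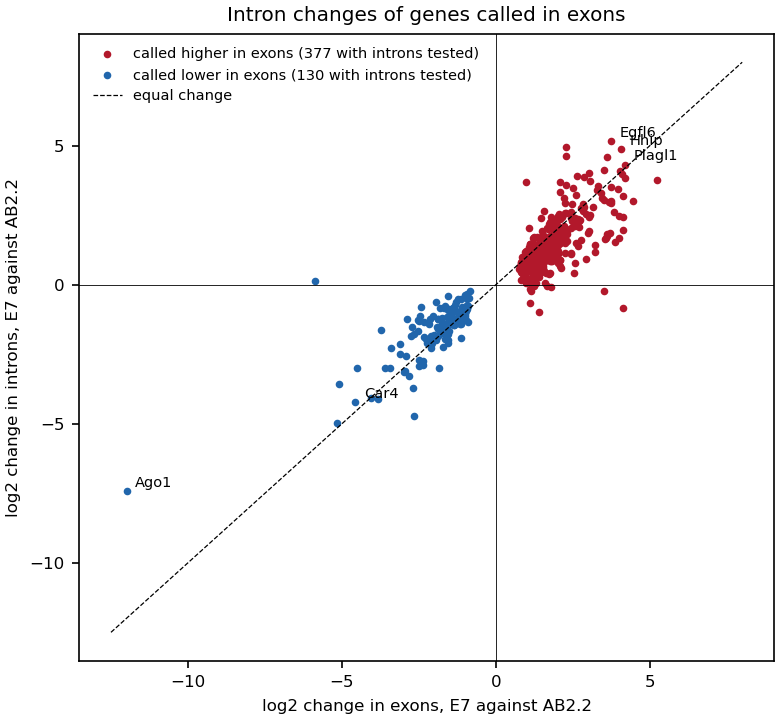
Log2 change in introns (vertical) by log2 change in exons (horizontal), E7 against AB2.2, for genes called in exons whose introns were tested. Red points are the 377 called higher and blue points the 130 called lower, and the dashed line marks equal change. Most points lie near the line.

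Along the chromosomes 3 segments stood out when changes were smoothed over 25 neighbouring tested genes. They were chosen after their values were seen, as runs of at least 30 windows whose median passed 0.5, and carry no test. Passing windows that started at most 25 genes apart were joined, so a run can also hold windows that did not pass. Of 12669 windows 18 runs passed this limit and 3 were that long. The last part of chromosome 12 (chr12:103407982-118852576, Ddx24 to Sp8) was lower. Its 83 genes had a median of −0.97, a factor of 0.511, and 25 were called lower (30.1%) and 1 higher (1.20%). Over all tested genes these shares were 1.46% and 3.11%. Every E7 library was below both AB2.2 libraries for 59 of the 83, against 20.2% of all genes. For each E7 and AB2.2 library in turn the median lay between −1.08 and −0.83, and libraries of 1 line differed by at most 0.12. The 65 genes with introns tested had an intron median of −1.04. Bcl11b, a zinc-finger factor, had 13.1, 9.20 and 5.11 in E7 libraries, against 79.3 and 104 in AB2.2 libraries (log2 change −3.26 ± 0.63, adjusted p = 0.0193). Btbd6, a BTB domain protein, had 79.9, 55.2 and 90.7 in E7 libraries, against 352 and 496 in AB2.2 libraries (log2 change −2.49 ± 0.41, adjusted p = 0.00910), and Crip2, a LIM protein, had 511, 279 and 331 in E7 libraries, against 1720 and 1404 in AB2.2 libraries (log2 change −2.10 ± 0.37, adjusted p = 0.0120). Amn and the uncalled Dlk1, with 107, 46.0 and 43.4 in E7 libraries, against 168 and 185 in AB2.2 libraries, belong to it, and Tcl1 moved against it.

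A second stretch of chromosome 12 (chr12:73280011-84876532, Trmt5 to Ltbp2) was higher. It held 90 genes with a median of 0.61, a factor of 1.52, 15 called higher and 1 lower, and an intron median of 0.63 over 71 genes. On chromosome 6 (chr6:119923969-141686646, Wnk1 to Slco1b2) 118 genes had a median of 0.57, a factor of 1.48, with 20 called higher and 0 lower. Every E7 library was above both AB2.2 libraries for 69 of the 118, against 21% of all genes, and 100 genes had an intron median of 0.64. Within it A2m, a protease inhibitor, had 897, 3287 and 1294 in E7 libraries, against 53.1 and 174 in AB2.2 libraries (log2 change 4.01 ± 0.64, adjusted p = 0.00824). Vwf, the von Willebrand factor, had 1032, 1392 and 1949.9 in E7 libraries, against 197 and 194 in AB2.2 libraries (log2 change 2.84 ± 0.44, adjusted p = 0.00709). Crebl2, a leucine zipper protein, had 779, 994 and 1078 in E7 libraries, against 152 and 157 in AB2.2 libraries (log2 change 2.60 ± 0.26, adjusted p = 0.000736). These genes were picked for the size of their change, so that they exceed the segment median follows from the choice. Nanog and Gdf3 lie in it as well, with log2 changes of 1.24 and 1.17. Cd4, Fgf23 and Kcna5 were called there from few reads, with 3.93, 3.83 and 3.59.

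The 3 segments held 291 genes and 62 of the 603 calls, and without them 505 genes were called. The other 486 tested genes of chromosome 6 had a median of −0.09 and the other 283 of chromosome 12 one of 0.06. B9 and the clones stood with E7, though the clone libraries differed from each other. Against AB2.2, with which all 3 share the same libraries, the lower segment had medians of −0.97 in E7, −0.94 in B9 and −0.84 in the clones. The chromosome 6 segment had 0.57, 0.63 and 0.76, and the higher one of chromosome 12 had 0.61, 0.63 and 0.65. Between E7 and B9 directly the medians were −0.08, −0.02 and 0.01. Relative to the mean of the fitted libraries, the clone libraries had −0.16 and 0.07 in the lower segment. They had 0.08 and 0.45 in that of chromosome 6, and 0.26 and 0.03 in the higher one of chromosome 12. AB2.2 libraries had 0.69 and 0.86, −0.51 and −0.53, and −0.55 and −0.40, in the same order. Whether AB2.2 or the Blm-null lines departed from a common level cannot be told apart with these groups.

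**Figure D4:**
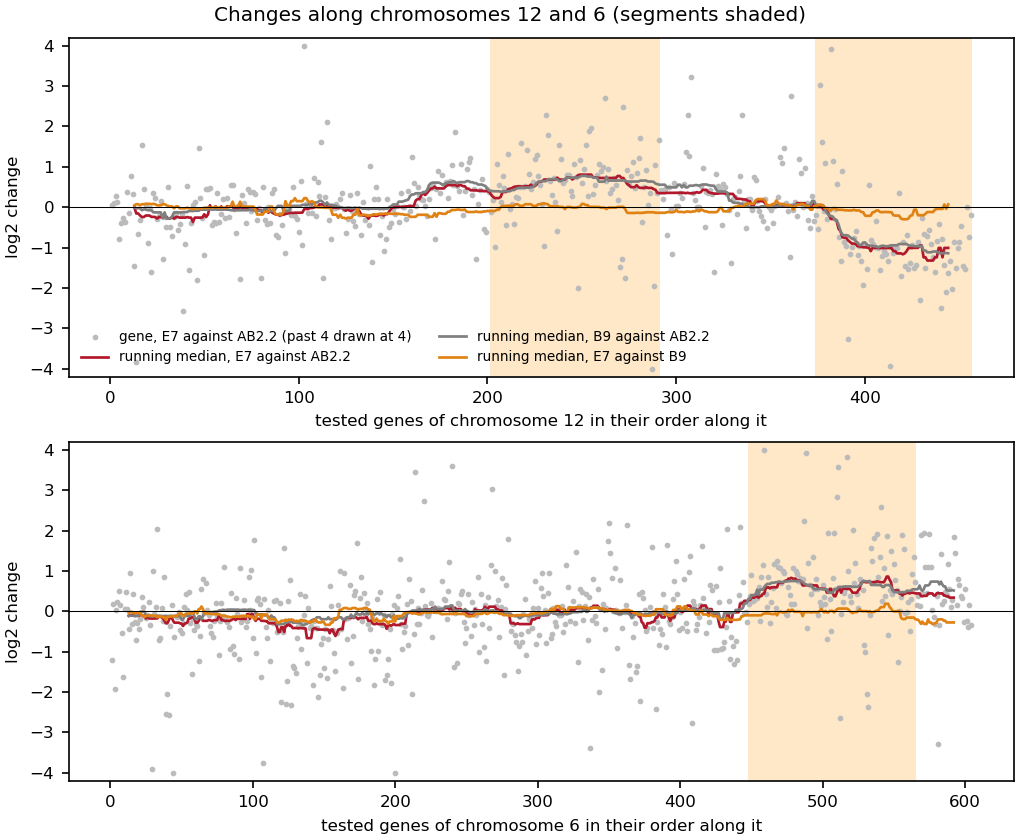
Log2 change of each tested gene (grey points, E7 against AB2.2, drawn at 4 or −4 where larger) in gene order along chromosome 12 (upper) and chromosome 6 (lower), with running medians over 25 genes. Red is E7 against AB2.2, grey B9 against AB2.2 and orange E7 against B9, and the 3 segments are shaded. Red and grey lines leave 0 together in the shaded segments while the orange line stays near 0.

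E7 was then set against B9, which shares the loss of Blm, Ago1, Ago3 and Ago4 but keeps mouse Ago2. By their labels E7 alone carries CreERT2 and the human Ago2 transgene, and each is 1 line. Loss of mouse Ago2, CreERT2, the transgene and clonal history therefore cannot be told apart between them. Here 9 genes were called (0.0682%), all 9 higher in E7 (0.0682%) and 0 lower (0%), with 1118 at an unadjusted p below 0.05. The count was 5, 1 and 2 without E7 library 1, 2 and 3, and 7 and 1 without B9 library 1 and 2. Esr1 had 314, 269 and 181 in E7, against 0 and 0 in B9 (log2 change 7.96 ± 0.68, adjusted p = 0.00169). Hhip (chr8:79965851-80058006) had 1612, 1439 and 3293 in E7, against 149.5 and 288 in B9 (log2 change 3.24 ± 0.43, adjusted p = 0.0312). Smyd1 (chr6:71213940-71322233), a muscle histone methyltransferase, had 2366, 2547 and 4126 in E7, against 404 and 504 in B9 (2.69 ± 0.29, adjusted p = 0.00870). In all 3 the B9 libraries lay nearer to AB2.2 than to E7. Mmrn2, an endothelial matrix protein, had 3673, 3431 and 3678 in E7, against 1006 and 1011 in B9 (1.83 ± 0.21, adjusted p = 0.0145). Cfp, properdin of the complement system, had 826, 598 and 1158 in E7, against 134 and 178 in B9. Slc5a1, a glucose transporter, had 787, 522 and 571 in E7, against 86.3 and 34.6 in B9. These, too, did not overlap between the lines, but genes called from these same libraries are picked for such separation. Abca1, a cholesterol exporter, Ankrd52, a phosphatase subunit, and Zbtb38, a zinc-finger protein, were higher by 2.93, 1.94 and 1.72. All 9 were also called higher in E7 against AB2.2.

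**Figure D5:**
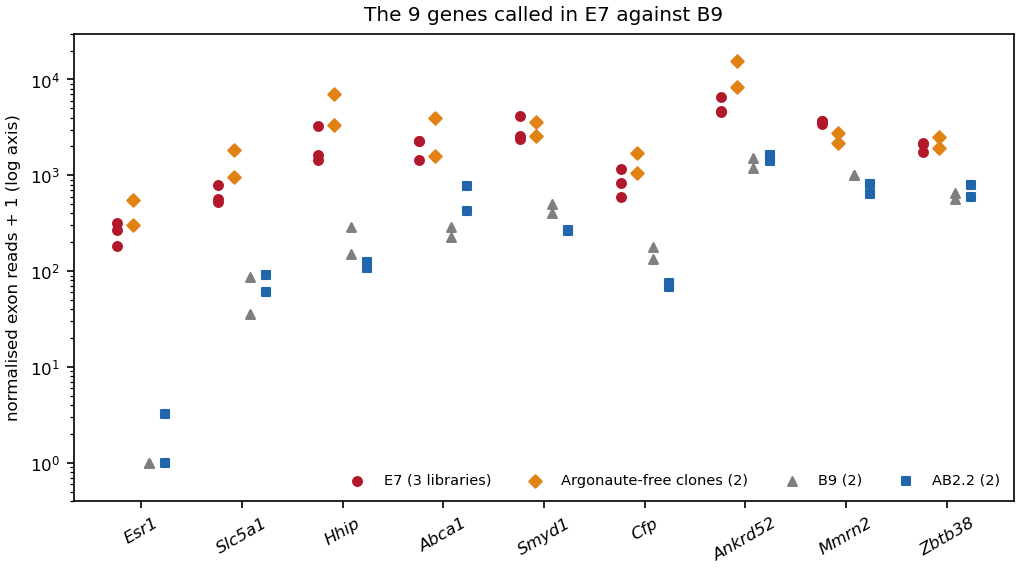
Normalised exon reads + 1 (vertical, log axis) of the 9 genes called in E7 against B9, with 1 point for each library. Red circles are E7, orange diamonds the Argonaute-free clones, grey triangles B9 and blue squares AB2.2. For each gene the E7 and clone points lie above those of B9 and AB2.2.

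By their labels the clones differ from E7 in the human Ago2 transgene. Clones against E7 gave 198 calls (1.5%), 94 higher (0.712%) and 104 lower (0.788%), and 2676 genes passed an unadjusted p of 0.05. The count was 69, 16 and 222 without E7 library 1, 2 and 3, and 2143 and 62 without clone library 1 and 2. None of the 9 genes was called between them. Hhip had 6988 and 3328 in the clones and 1612, 1439 and 3293 in E7 (adjusted p = 0.150). Smyd1 had 3626 and 2586 in the clones and 2366, 2547 and 4126 in E7 (adjusted p = 0.917). A p that misses the threshold does not show that the levels were alike. Lin28a, which was 21553 and 20642 in AB2.2, had 891 and 579 in the clones and 17075, 14051 and 8029.8 in E7 (log2 change −4.11, adjusted p = 0.000549). In E7 against B9 the highest median of the 28 lists was 1.46, of the 2-cell-like state (10 tested), followed by 0.69 for interferon-stimulated genes. No gene of either list was called there, and all tested genes had a median of −0.03. The 2-cell-like list summed to 2143, 4085 and 1357 in E7 libraries, against 869 and 796 in B9 and 1292 and 2300 in AB2.2. The primitive endoderm list had a median of −0.85 and the naive list 0.03 in E7 against B9. The trophoblast list had −0.07 there, and the matrix and cytoskeleton list 0.03. The formative and primed list had a median of −0.28 against B9, and the germline list one of −1.26, and none of the 9 called genes belongs to these lists. ES cell microRNA targets had a median of 0.55 in E7 against B9 and 0.42 in the clones against E7.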

How the data were processed

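Libraries of polyadenylated RNA were strand-specific, per the labels' protocols, and TopHat2 2.0.12, DESeq and the build mm10 are named in the submitters' processing notes. The deposited values are a signal, not raw reads: the authors' group means of reads per gene divided by DESeq size factors, for exons and for introns. Because each mean is a sum of whole reads over fixed size factors, an integer search gave the reads of each library for 99.9708% of means. On simulated means for the E7 exons it recovered 98.7% and none wrongly. For E7 means above 500 the search took only solutions whose libraries lay within 8-fold of each other, or 4-fold above 15000. The simulated means were drawn around values solved under this limit or set equal, so they cannot show errors for genes that break it. Read numbers below 30 were even in 78.2% to 85.8% of E7 exon values. The 9 libraries of 4 genotypes were fitted together on log2(normalised reads + 1) by limma (version 3.58.1, R 4.3.3), letting the prior variance follow the mean, for genes with a mean of at least 10, with Benjamini-Hochberg adjustment over all of them. Count models were not used. E7 exon and intron libraries were matched by correlation for the exon minus intron test. Named genes were the 12 largest called exon changes each way with no overlap of groups and a group mean of at least 50, the 6 largest intron changes each way, the called members of 28 gene lists with up to 4 uncalled ones, genes called against B9, and segment genes by size of change. A result that the rule also names is not reported here. The members and lists were chosen with earlier results of these data known. Gene positions and 3′ untranslated regions are from GENCODE M21 (GRCm38, the assembly of mm10). On simulated data false calls made up 1.47% of exon calls (1 of 68) and 2.44% of intron calls (1 of 41). The simulated noise was independent between genes and libraries, without shifts shared by many genes of a library. These shares are therefore no rate of false calls in the real data. A gene at 0 could still hold up to 3 reads, 3.03 to 3.83 normalised reads in E7 exons, which covers counting error only. This limit takes reads as independent, which the share of even read numbers does not bear out.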

Additional observations from a re-analysis of the deposited data

Results flagged for a closer look

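For 9 genes E7 differed from B9 by a test of that difference itself, with limma and Benjamini-Hochberg adjustment, and E7 was the higher line in each. The log2 changes of E7 over B9 were 7.96 for Esr1 (adjusted p = 0.00169), 3.47 for Slc5a1 (0.0283), 3.24 for Hhip (0.0312) and 2.93 for Abca1 (0.0362). They were 2.69 for Smyd1 (0.00870), 2.42 for Cfp (0.0405), 1.94 for Ankrd52 (0.0405), 1.83 for Mmrn2 (0.0145) and 1.72 for Zbtb38 (0.0377). In all 9 genes every E7 library was above every B9 library, but the genes were picked from these same libraries, so this adds no support. The lines differ in mouse Ago2, CreERT2, the human transgene and clonal history, which cannot be told apart here.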

How the results depend on the processing

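The exon count of 603 lay between 44 and 410 with 1 library left out, and between 405 and 885 under the other settings. Its largest drop came without AB2.2 library 2. The intron count of 64 was 27 without a filter on low values and 18 without a variance trend, and 8 to 72 with 1 library left out. The exon minus intron count of 1 was 0 with libraries unmatched and 2 with a pseudocount of 5, and 1 to 49 with 1 library left out. E7 against B9 gave 3 calls without a trend, 1 higher and 2 lower, and 1 to 7 with 1 library left out. Clones against E7 gave 113 without a trend and 16 to 2143 with 1 library left out. The cause of these moves was not tested. For single genes, 1495 values were recomputed. Of these 1106 kept their direction and side of the threshold, 385 kept the direction but lost the call, 4 gained it and 0 reversed. Scaling by library totals moved the median of all genes by −0.08 to 0.06 between libraries. No paired analysis was possible because the columns carry no replicate numbers. With 3 E7 and 2 AB2.2 libraries, simulated exon changes of 1.5-fold gave no calls, and 10% of 2-fold ones were called.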

Other observations

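Chromosome 8 moved between libraries of 1 line: the median of its genes, relative to their mean over 9 libraries, was 0.22, −0.16 and −0.06 in the E7 libraries and 0.26 and 0.42 in the clones, against −0.17 and −0.23 in B9 and −0.02 and −0.09 in AB2.2. The chromosome's median change was 0.17 in E7 against B9, and Hhip, called there, lies on it. Y-linked genes were kept in E7, where Ddx3y had 1945, 3527 and 2470 in E7 libraries, against 2134 and 2052 in AB2.2 libraries, and their list sum was 0.964 in 1 clone library.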
